A study of Mus musculus with 45 samples.

Results

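The genes followed here encode the enzymes of glycolysis and of the citrate cycle, with the enzymes that link the pathways, in NIH-3T3 cells, a mouse fibroblast line. The list of 39 genes is defined by pathway membership. A gene was read where the platform annotation gave a probe set exactly 1 symbol equal to the gene's, and the probe set with the highest mean over all 45 arrays stood for it. Of the 39 genes, 36 had such a probe set, among 13232 genes with one in the series. Gapdh was read from control probe sets alone and was not tested, and Gpi1 and Eno1 had no probe set with a single symbol. Aldoc lay below the filter on low values in every comparison, and Pfkfb3 passed it only where newly transcribed RNA at 30 min was compared.

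The study separated newly made RNA from older RNA by labelling cells with 4-thiouridine (4sU), a uridine analogue that growing cells build into new transcripts. All cells were NIH-3T3 at passage 5 to 15 after thawing, plated at 40% density and used at about 80%, and every experiment began with a change to fresh medium carrying the label or the drug. Actinomycin D, which blocks transcription, was given at 5 µg/ml, and total RNA was taken before it and after 1 h and 2 h (3 arrays each). Total and newly transcribed RNA were measured after 30 min of 500 µM 4sU (9 arrays each) and after 60 min of 200 µM 4sU (3 arrays each), with unlabelled pre-existing RNA at 60 min (3 arrays). Newly transcribed RNA was also measured after 15 min of 500 µM 4sU (3 arrays), with no total RNA of its own. A second 60 min experiment with total and newly transcribed RNA (3 arrays each) is labelled 2F, a term the labels do not explain, and they do not explain the word mock in some titles either. No group here measures protein, enzyme activity or metabolites.

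Glycolysis turns glucose into pyruvate in the cytosol, with hexokinase and phosphofructokinase as its main control points, and lactate dehydrogenase can turn pyruvate into lactate. In mitochondria the pyruvate dehydrogenase complex makes acetyl-CoA from pyruvate, and the citrate cycle oxidises it and feeds electrons to respiration. Many of these enzymes are abundant, long-lived housekeeping proteins, whereas hexokinase 2 is known as the isoform that growth factors induce in dividing cells.

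Values are intensities on a linear scale as deposited, and changes are log2 differences ± standard error from limma. A gene is said to be called, or to be higher or lower, at an adjusted p below 0.05 (Benjamini-Hochberg over all probe sets tested) and a change of 2-fold or more. Arrays are scaled to each other, so a ratio of newly transcribed to total RNA is relative to the other transcripts and is not the share of molecules that are new. In a bulk sample, fewer cells with a transcript and less of it per cell cannot be told apart. The labels do not say whether the replicate arrays came from separate cultures, and the p-values measure only the scatter among arrays, part of which can be technical.

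The median intensity of an array lay between 22.7 and 40.1. In untreated cells 9 of 9 measured fibroblast markers reached an intensity of 32, as did 0 of 3 epithelial, 0 of 2 endothelial and 0 of 2 muscle markers, and 1 of 4 leukocyte markers did (Cd14, 48.3). The 9 arrays at 30 min fell into 3 sets of array numbers (1, 4 and 7, then 2, 5 and 8, then 3, 6 and 9): the SD of log2 differences between total RNA arrays was 0.145 to 0.219 within sets and 0.393 to 0.679 between them. In the first 60 min experiment the same SD was 0.501 to 0.974 for total and 0.332 to 1.08 for newly transcribed RNA, against 0.125 to 0.144 for total RNA of the 2F experiment. Array 2 of total RNA and array 1 of newly transcribed RNA stood apart there. On the latter, the Gapdh 3' control probe set exceeded the 5' one by 3.07 (log2), a value below 0 on the other arrays of that group. Of 35 changes of single members called with total or newly transcribed RNA of this experiment, 12 were not called without these 2 arrays. Values without them are given for some of these changes. Fits at 30 min took the 9 arrays of a group as independent despite the sets, so p-values there can be too small. With the 30 min arrays averaged in sets, 28 of 34 called or named changes of single members kept direction and call. The other 6 were no longer called.

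Transcripts of these enzymes were mostly scarcer in newly transcribed than in total RNA, and Hk2 was the exception. At 30 min, 26 of 35 tested members were lower in newly transcribed RNA and 1, Hk2, was higher, while 25.6% of all tested probe sets were called lower and 23.7% higher. The median change of the members was -1.34, against -0.14 over all probe sets tested, and 33 of 35 lay below 0. By role, 5 of 7 genes of upper glycolysis, 4 of 6 of lower glycolysis, 4 of 7 of pyruvate entry and 13 of 15 of the citrate cycle were lower.

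Both 60 min experiments used other arrays. In the first, 21 of 34 members were lower and 2 higher, against 21.8% and 17.7% of all probe sets, with a median of -1.19. By role the lower ones were 2 of 6 genes of upper glycolysis, 2 of 6 of lower glycolysis, 6 of 7 of pyruvate entry and 11 of 15 of the citrate cycle. In the 2F experiment 22 of 34 were lower and 1 higher, against 21.8% and 24% of all probe sets, with a median of -1.35, and the same roles had 4 of 6, 4 of 6, 4 of 7 and 10 of 15. Over the 3 experiments together, 16 of 34 members were lower in all 3 and Hk2 was higher in all 3, where 13.6% and 11.7% of the 14763 probe sets tested in every experiment were. The 16 were Pfkl, Pfkm, Tpi1, Ldhb, Dlat, Idh1, Idh2, Idh3g, Suclg1, Suclg2, Sucla2, Mdh1, Mdh2, Pcx, Pdk1 and Me1. Of these 17 genes, 13 kept the call in all 30 fits that left out 1 array. Sucla2 lost it in 4 fits of the 2F experiment (without newly transcribed array 2 or 3 or total RNA array 1 or 2). At 60 min Tpi1 lost it without newly transcribed or total RNA array 3, Pcx without newly transcribed array 2 or total RNA array 1, and Pfkl without newly transcribed array 2. A further 8 were lower in 2 experiments (Pfkp, Aldoa, Pgk1, Ldha, Idh3a, Idh3b, Ogdh and Fh1) and 5 in 1 (Hk1, Pdhb, Dld, Cs and Aco1). Of these 5, Pdhb, Dld and Aco1 were called in the first 60 min experiment, where newly transcribed array 1 was lowest for each. For Aco1 its 3 newly transcribed arrays held 455, 644 and 681. Pgam1, Pdha1 and Dlst were called in none, and Eno2 was called higher in 1.

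**Figure D1:**
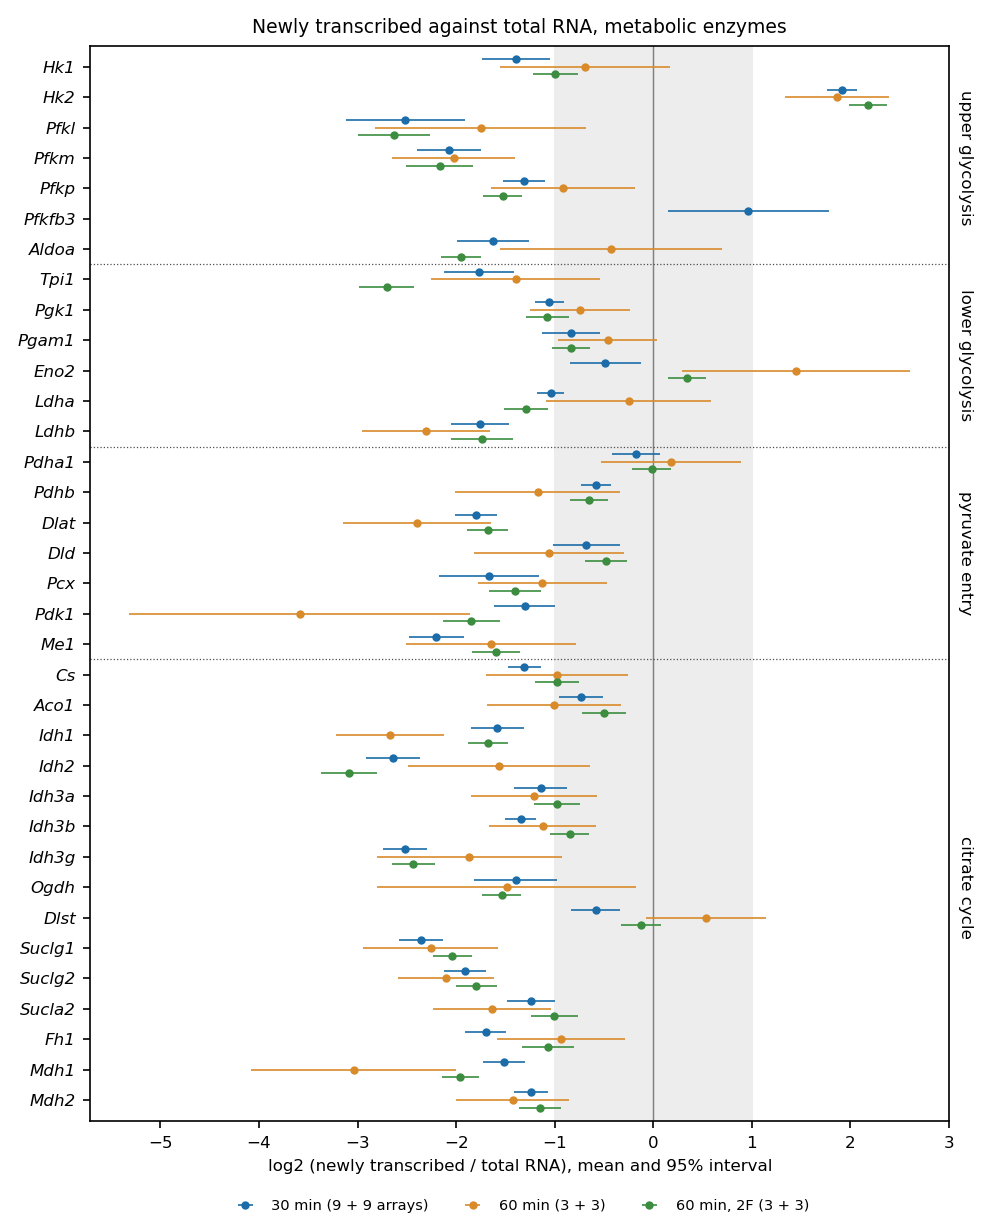
Log2 difference between newly transcribed and total RNA for each tested gene, by role, in the 3 labelling experiments; points are limma estimates, bars their 95% intervals, and the grey band marks changes under 2-fold. Hk2 lies right of the band in all 3 experiments (1.91, 1.86 and 2.18), and most other genes lie left of it.

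Hk2 encodes hexokinase 2, which traps glucose in the cell as glucose 6-phosphate. At 30 min its intensity was 318, 359 and 409 (lowest, median and highest of 9 arrays) in total RNA and 1186, 1400.0 and 1559.8 in newly transcribed RNA. No newly transcribed array came near a total RNA array, and the change was 1.91 ± 0.07 (3.77-fold, adjusted p = 2.5e-14). Within the 3 sets of arrays the change was 1.84, 2.06 and 1.84.

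In the first 60 min experiment Hk2 stood at 709, 1024 and 735 in the 3 arrays of total RNA and at 2751, 3246 and 2869.8 in newly transcribed RNA (1.86 ± 0.24, 3.63-fold, adjusted p = 2.9e-04). In the 2F experiment it stood at 532, 520.0 and 579 in total RNA and at 2505, 2471 and 2401 in newly transcribed RNA (2.18 ± 0.09, 4.53-fold, adjusted p = 1e-07). The groups did not overlap in either experiment. Pre-existing RNA at 60 min held 280.4, 322 and 325, all below the total RNA of the same experiment (-1.39 ± 0.24, 2.63-fold lower, adjusted p = 0.004). Hk2 was thus high in the new and low in the old RNA of 1 experiment. Pcx was called the other way round, lower in newly transcribed and higher in pre-existing RNA (-1.13 ± 0.29 and 1.08 ± 0.29). Its newly transcribed RNA held 41.9, 24.4 and 25.1, and both calls were lost when certain single arrays were left out.

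Hk2 also had the lowest change of any member after 2 h of actinomycin D. Its intensity was 338, 487 and 447 in untreated cells, 319.7, 336 and 397 after 1 h and 178, 236 and 254 after 2 h. The 2 h arrays all lay below the untreated ones (-0.93 ± 0.18, 1.90-fold lower, 95% interval -1.33 to -0.53, adjusted p = 0.0031), which missed the 2-fold limit of a call. The 1 h arrays overlapped with the untreated ones (-0.26 ± 0.18, adjusted p = 0.27). Of all tested probe sets, 10.3% changed more negatively than Hk2 at 2 h, and 87% had a lower ratio of newly transcribed to total RNA at 30 min, so Hk2 lay within the range of other transcripts. Myc, a transcription factor with a short-lived transcript, changed by -5.38 ± 0.19 at 2 h in the same arrays.

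**Figure D2:**
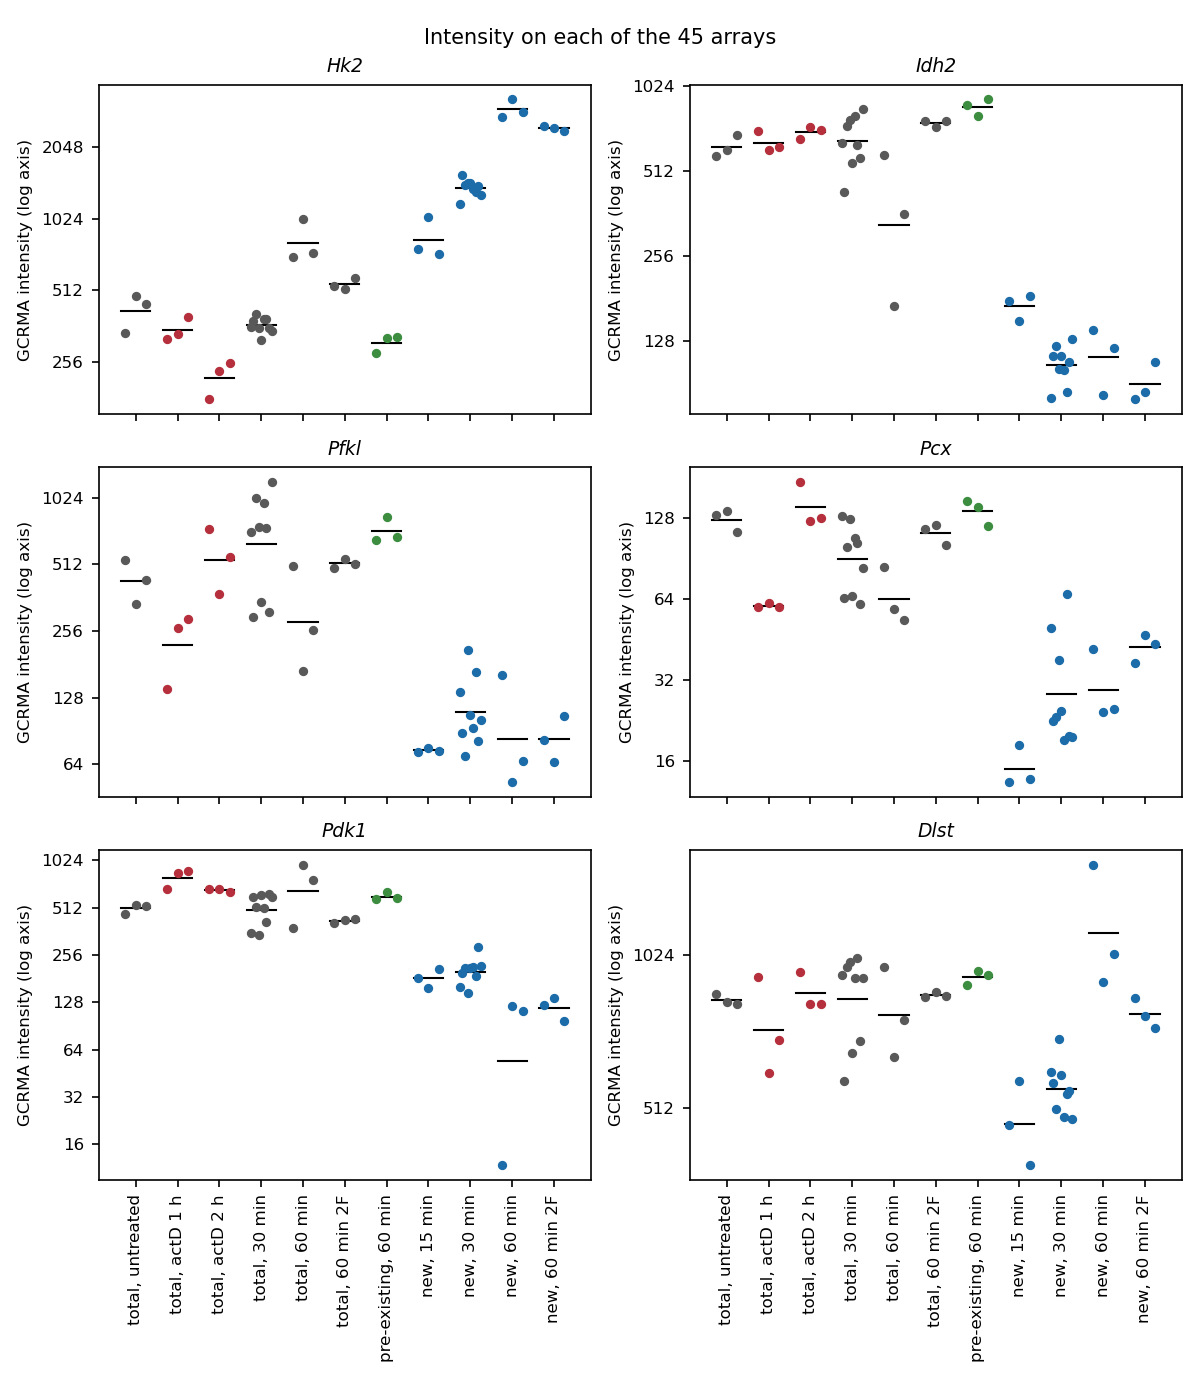
Intensity on a log axis of Hk2, Idh2, Pfkl, Pcx, Pdk1 and Dlst in each of the 45 arrays, by group; points are arrays, bars geometric means, and colours mark total RNA (grey), total RNA after actinomycin D (red), pre-existing (green) and newly transcribed RNA (blue). Newly transcribed RNA lies above total RNA for Hk2 and below it for Idh2 and Pfkl, while the Pdk1 value of array 1 at 60 min (11.8) lies far below the other 2.

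The sequences upstream of 4 members are shown as examples: Hk2, the gene that was higher, Idh2 and Pfkl, which were among the lowest, and Ldha, a known target of hypoxia-inducible factor. Idh3g, as low as Pfkl at 30 min (-2.52 against -2.51), is not shown. Each line gives the 100 bases before the annotated start, 5' to 3' on the gene's strand, from RefSeq's annotation of GRCm38.p6. Capitals mark ACGTG, the core of the hypoxia response element, or its reverse complement CACGT. The windows are chr6:82774455-82774554 (minus strand) for Hk2, chr7:80115351-80115450 (minus) for Idh2, chr10:78009808-78009907 (minus) for Pfkl and chr7:46845704-46845803 (plus) for the first of 2 starts of Ldha.
Hk2: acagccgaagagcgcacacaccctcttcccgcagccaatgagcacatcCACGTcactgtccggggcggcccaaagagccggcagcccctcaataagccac
Idh2: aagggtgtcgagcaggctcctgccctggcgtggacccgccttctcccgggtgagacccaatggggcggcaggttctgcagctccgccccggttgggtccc
Pfkl: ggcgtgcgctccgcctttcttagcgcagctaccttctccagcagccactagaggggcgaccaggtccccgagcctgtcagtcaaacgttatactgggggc
Ldha: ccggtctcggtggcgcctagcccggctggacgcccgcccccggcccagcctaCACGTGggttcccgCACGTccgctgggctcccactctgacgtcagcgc

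Letters were counted on both strands in windows from 250 bases before to 50 after each start, for 58 promoters of 38 members (Idh3a was not in the table). ACGTG was in 41.4% of the members' promoters and in 19.6% of all 32851 promoters. GCGTG was in 51.7% against 32.4%. In these windows Idh2 and Pfkl each had 0 ACGTG and 1 GCGTG, Idh3g had 1 and 1, and Hk2 had 2 and 0. Of the 16 members lower in all 3 experiments, Idh3g, Pfkm, Mdh1, Me1 and Pcx had ACGTG and the others did not. Ldha had 5 and 2 at its first start. GGGCGG, the GC box, was in 60.3% against 35.7%, and TATAAA in 1.72% (a promoter of Eno2) against 13.6%. CACGTG, the E-box palindrome that holds ACGTG, was in 12.1% against 7.15%, and CCAAT in 46.6% against 37.4%. A gene with several starts was counted once per start, as Ogdh with 6, all with ACGTG. By gene, 16 of 38 members had ACGTG and 5 had CACGTG in at least 1 promoter. The promoters were not matched for base content. A match is a run of letters and not a measured binding site.

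Among the other genes of upper glycolysis, all phosphofructokinase subunits were lower in newly transcribed RNA at 30 min. Pfkl, the liver-type subunit, had intensities of 297, 749 and 1203 (lowest, median and highest) in total RNA and 70.1, 102 and 209 in newly transcribed RNA (-2.51 ± 0.29, 5.71-fold lower, adjusted p = 1.2e-07). Pfkm, the muscle-type subunit, had 155, 214 and 300.0 against 36.5, 53.6 and 65.1 (-2.08 ± 0.15, 4.22-fold lower, adjusted p = 2e-10). The groups did not overlap for either gene. Pfkp, the platelet-type subunit, was lower at -1.31 ± 0.10, with newly transcribed RNA close to an intensity of 32 (median 33.9).

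Pfkfb3 makes fructose 2,6-bisphosphate, an activator of phosphofructokinase, and its change of 0.96 ± 0.39 (1.95-fold, adjusted p = 0.029) missed the 2-fold limit. It moved with the array sets: total RNA held 7.88 to 12.85 in arrays 1, 4 and 7 and 28.8 to 37.9 in the others, and newly transcribed RNA 15.7 to 31.4 and 55.3 to 83.4. Leaving out any one of 8 arrays brought it past the limit (newly transcribed arrays 1, 4 and 7, total RNA arrays 2, 3, 5, 8 and 9). Hk1, the constitutive hexokinase, was lower (-1.39 ± 0.17), as was Aldoa, the main aldolase (-1.62 ± 0.18). Aldoc, another aldolase, was at 4.88 to 6.58 over all 45 arrays, under the filter.

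Of the 6 tested genes of lower glycolysis, 4 were lower in newly transcribed RNA at 30 min, with a median of -1.05, against 25.6% of all probe sets. In the first 60 min experiment 2 were lower and 1 higher (median -0.60), and in the 2F experiment 4 were lower (median -1.18). Tpi1, which interconverts the triose phosphates, was at -1.77 ± 0.17 at 30 min and at -2.70 ± 0.12 (6.51-fold lower, adjusted p = 1.5e-07) in the 2F experiment, with 4241, 4280.4 and 4273 in total RNA and 585, 607 and 791 in newly transcribed RNA. Ldhb, the lactate dehydrogenase subunit typical of heart, was lower at -1.76 ± 0.14, and Pgk1, which makes ATP in the pay-off phase, at -1.05 ± 0.07. Pgam1, a phosphoglycerate mutase, changed by -0.84 ± 0.14 (1.79-fold, adjusted p = 1.8e-05), under the limit.

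Ldha, the subunit that favours lactate formation, showed how small and how regular such a difference could be. Its intensity was 4964 to 5749 over the 9 total RNA arrays and 2375 to 2913 over the 9 newly transcribed arrays (-1.04 ± 0.07, 2.06-fold lower, adjusted p = 2.3e-11). It was lower in the 2F experiment as well (-1.29 ± 0.10) and was -0.25 ± 0.38 (adjusted p = 0.61) in the first 60 min experiment. Gapdh, which oxidises glyceraldehyde 3-phosphate, was on 3 control probe sets, and on the 3' one newly transcribed RNA was at 12.90 ± 0.24 and total RNA at 13.58 ± 0.14 (log2, SD, n = 9 each). That difference of -0.68 was not tested, and the middle and 5' probe sets gave -0.85 and -0.69.

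Eno2, the neuronal enolase, was the other gene called higher in any experiment. Its change was -0.49 ± 0.17 (1.40-fold, adjusted p = 0.014) at 30 min, 0.34 ± 0.08 (1.27-fold, adjusted p = 0.0043) in the 2F experiment and 1.45 ± 0.52 (2.72-fold, adjusted p = 0.044) in the first 60 min experiment. In the last, total RNA held 55.2, 19.3 and 29.15 and newly transcribed RNA 197, 61.2 and 52.2, so the groups overlapped and 2 total RNA arrays lay below 32. The call was lost without newly transcribed array 1 (0.85), total RNA array 2 (1.09) or total RNA array 3 (1.39).

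In the group that feeds pyruvate into mitochondria, 4 subunits of the pyruvate dehydrogenase complex were measured. Dlat, its E2 core, was lower at 30 min (-1.80 ± 0.10, 3.49-fold, adjusted p = 3.1e-12), at 60 min (-2.40 ± 0.34) and in the 2F experiment (-1.68 ± 0.09). The E1 subunits Pdha1 (-0.18 ± 0.12, adjusted p = 0.18) and Pdhb (-0.58 ± 0.07, 1.50-fold) and the E3 subunit Dld (-0.68 ± 0.16, 1.60-fold) stayed under the 2-fold limit at 30 min. At 60 min Pdhb (-1.17 ± 0.37) and Dld (-1.06 ± 0.34) were lower and Pdha1 (0.18 ± 0.32, adjusted p = 0.66) was not, while in the 2F experiment none of the 3 was called. Array 1 of newly transcribed RNA at 60 min was low for both Pdhb (198 against 569 and 514) and Dld (237 against 404 and 515). A second probe set of Pdha1 was lower at 30 min (-1.38 ± 0.22) and in the 2F experiment (-1.35 ± 0.13). Differences between subunits were not tested.

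Me1, the cytosolic malic enzyme that makes NADPH, had intensities of 190.3, 213 and 316 (lowest, median and highest) in total RNA and 41.9, 48.0 and 79.55 in newly transcribed RNA (-2.20 ± 0.13, 4.60-fold lower, adjusted p = 1e-11). Its groups did not overlap. Pdk1, a kinase that switches off pyruvate dehydrogenase, was lower at -1.31 ± 0.15. Pcx, pyruvate carboxylase, which makes oxaloacetate, was at -1.67 ± 0.24 with 61.4, 100.1 and 130.3 against 19.2, 23.4 and 66.9, so the groups overlapped and newly transcribed RNA lay mostly below 32.

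In the citrate cycle, Idh2 had the lowest ratio of any member at 30 min and in the 2F experiment. Idh2, the mitochondrial NADP-dependent isocitrate dehydrogenase, had intensities of 432, 645 and 847 (lowest, median and highest) in total RNA at 30 min and 79.8, 108 and 129 in newly transcribed RNA (-2.64 ± 0.13, 6.24-fold lower, adjusted p = 5.6e-13). In the 2F experiment total RNA held 770.2, 736 and 772 and newly transcribed RNA 79.1, 83.9 and 108 (-3.09 ± 0.12, 8.49-fold lower, adjusted p = 1e-07). The groups were apart in both, and only 2.04% of all tested probe sets had a lower ratio at 30 min and 0.913% in the 2F experiment. In the first 60 min experiment 12.9% had a lower ratio, and Idh2 was not the lowest member there.

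Idh3g, a regulatory subunit of the NAD-dependent enzyme, was nearly as low, with 1025, 1124 and 1426 in total RNA and 146, 220.0 and 261 in newly transcribed RNA (-2.52 ± 0.11, 5.73-fold lower, adjusted p = 6.6e-14). The other subunits of that enzyme were lower by less, the catalytic Idh3a at -1.14 ± 0.13 and Idh3b at -1.34 ± 0.08. Idh1, the cytosolic NADP-dependent enzyme, was at -1.59 ± 0.13. In the 2F experiment Idh3a (-0.97 ± 0.10) and Idh3b (-0.85 ± 0.09) were under the 2-fold limit and Idh3g was not (-2.43 ± 0.10, 5.40-fold lower).

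Succinyl-CoA ligase, which makes GTP or ATP from succinyl-CoA, was lower in all 3 of its genes. Suclg1, the shared alpha subunit, had 890.0, 974 and 1061 in total RNA and 151, 185 and 303.5 in newly transcribed RNA (-2.36 ± 0.11, 5.12-fold lower, adjusted p = 1.9e-13), with no overlap. The GTP-forming beta subunit Suclg2 was at -1.91 ± 0.10 and the ATP-forming Sucla2 at -1.24 ± 0.12. Sucla2 is the member with probe sets called in opposite directions, as given further on.

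Fh1 (fumarase) was lower at -1.70 ± 0.10, and so were the malate dehydrogenases Mdh1 of the cytosol (-1.51 ± 0.10) and Mdh2 of mitochondria (-1.24 ± 0.08). Cs, citrate synthase, was at -1.31 ± 0.08 and Ogdh, the first subunit of the 2-oxoglutarate dehydrogenase complex, at -1.40 ± 0.20. The members of the cycle under the 2-fold limit at 30 min were Aco1, the cytosolic aconitase (-0.73 ± 0.11, 1.66-fold), and Dlst, the E2 subunit of the 2-oxoglutarate dehydrogenase complex (-0.59 ± 0.12, 1.50-fold).

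The probe set chosen for a gene mattered for a few members. Of 19 members with at least 2 tested probe sets at 30 min, 5 had probe sets that differed in call (Aco1, Dlst, Pdha1, Pgk1 and Sucla2), and 1 had probe sets called in opposite directions. For Sucla2 the probe set used gave -1.24 ± 0.12 and another 1.56 ± 0.18. For Dlst 2 others gave 3.53 ± 0.12 and 3.16 ± 0.13 against -0.59 ± 0.12, and for Pdha1 another gave -1.38 ± 0.22 against -0.18 ± 0.12. Hk2 had 1 probe set. Where on the transcript each probe set lies was not analysed here.

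**Figure D3:**
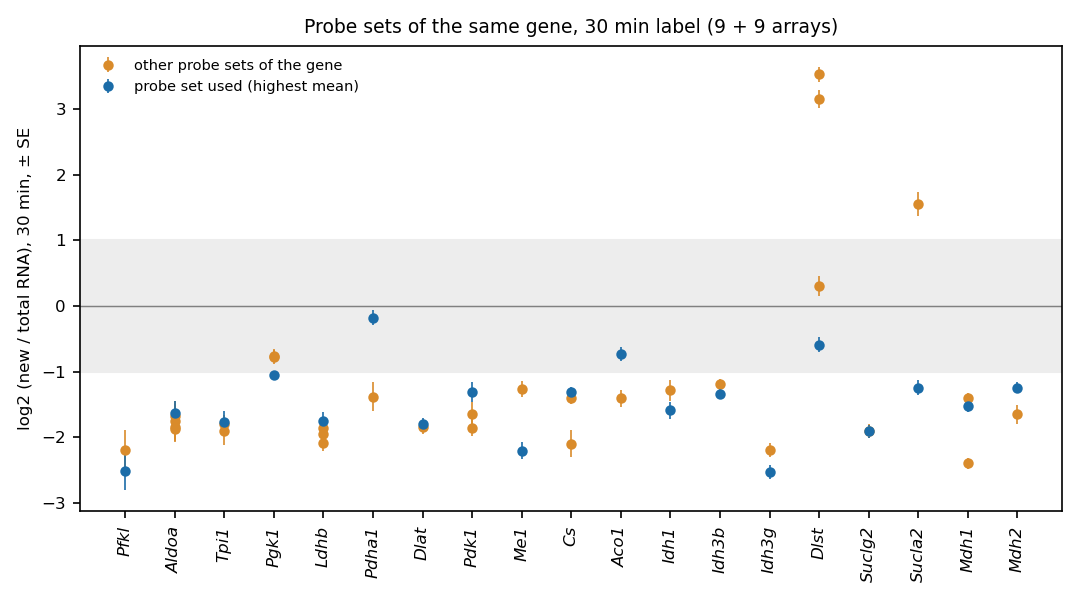
Log2 difference between newly transcribed and total RNA at 30 min for the 19 genes with at least 2 tested probe sets; blue points are the probe set used, orange points the others, and bars are standard errors. The orange points of Dlst at 3.53 and 3.16 and of Sucla2 at 1.56 lie on the other side of 0 from the blue ones.

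Differences in the ratio between experiments were tested as interaction terms. Between the first 60 min experiment and 30 min, 3 of 34 members had a lower ratio at 60 min and 3 a higher one, against 10.5% and 8.28% of all tested probe sets. The lower ones were Pdk1 (-2.28 ± 0.62, adjusted p = 0.012), Mdh1 (-1.52 ± 0.37, adjusted p = 0.0064) and Idh1 (-1.09 ± 0.27, adjusted p = 0.007). The higher ones were Eno2 (1.93 ± 0.48, adjusted p = 0.0069), Dlst (1.12 ± 0.27, adjusted p = 0.0059) and Idh2 (1.08 ± 0.37, adjusted p = 0.037).

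These 6 differences rested on few arrays. Pdk1 stood at 382, 957 and 766 in total RNA at 60 min and at 11.8, 121 and 112 in newly transcribed RNA, the low value being array 1, and Mdh1 stood at 2169, 3396 and 3288 in total RNA and at 149.95, 505 and 577 in newly transcribed RNA, again lowest in array 1. Idh2 stood at 585, 170.2 and 361 in total RNA, lowest in array 2. Without newly transcribed array 1 and total RNA array 2 none of the 6 was called, with Pdk1 at -0.91 (adjusted p = 0.14), Mdh1 at -0.79 (0.064), Idh1 at -0.80 (0.10), Eno2 at 0.98 (0.16), Dlst at 0.76 (0.097) and Idh2 at 0.44 (0.46). Leaving out newly transcribed array 1 alone, or total RNA array 2 alone, left 1 lower and 1 higher member, while leaving out newly transcribed array 2 gave 5 higher and total RNA array 1 gave 6 higher. Over all probe sets 1672 were lower and 1319 higher, which became 1085 and 563 without newly transcribed array 1, 909 and 474 without total RNA array 2, and 2387 higher without total RNA array 1. Averaging the 30 min arrays in their 3 sets leaves the size of each difference as it was, and with fewer values 0 members and 0 probe sets were called.

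The ratio of Hk2 did not pass the test in any of these differences (-0.05 ± 0.18, adjusted p = 0.85, at 60 min against 30 min, and 0.32 ± 0.27, adjusted p = 0.56, for 2F against the first 60 min experiment). Between 2F and 30 min 0 of 34 members were called either way in limma (8 at an unadjusted p below 0.05, as were 29% of all probe sets), against 3.73% of probe sets lower and 2.57% higher. Between 2F and the first 60 min experiment 0 of 34 were called (5 at an unadjusted p below 0.05, as were 13.4%), against 0.0063% and 0.0189%.

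Few of these transcripts were called after transcription was blocked. As arrays are scaled to each other, these changes too are relative to the other transcripts. After 2 h of actinomycin D 0 of 34 members were called in limma in either direction (10 at an unadjusted p below 0.05, as were 45.7% of all probe sets), where 9.42% of all probe sets were lower and 0.538% higher. With the arrays quantile normalised the counts over all probe sets were 1202 lower and 301 higher in place of 1419 and 81, and the members' counts stayed at 0. The members' changes ran from -0.93 (Hk2) to 0.46 (Pfkm), with a median of 0.18 against 0.10 over all probe sets, and 3 lay below 0. All 15 citrate cycle genes lay between 0.02 and 0.34, against a 5th percentile of -1.59 and a 95th of 0.65 over all probe sets. For 15 of 34 members the 2 h arrays all lay above the untreated ones and for 1 all below, where the shares were 27.6% and 22.6% of all probe sets. Hk2 passed the 2-fold limit when actinomycin D array 3 (-1.03, adjusted p = 0.0045) or untreated array 1 (-1.08, adjusted p = 0.0021) was left out, which made the count 1.

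**Figure D4:**
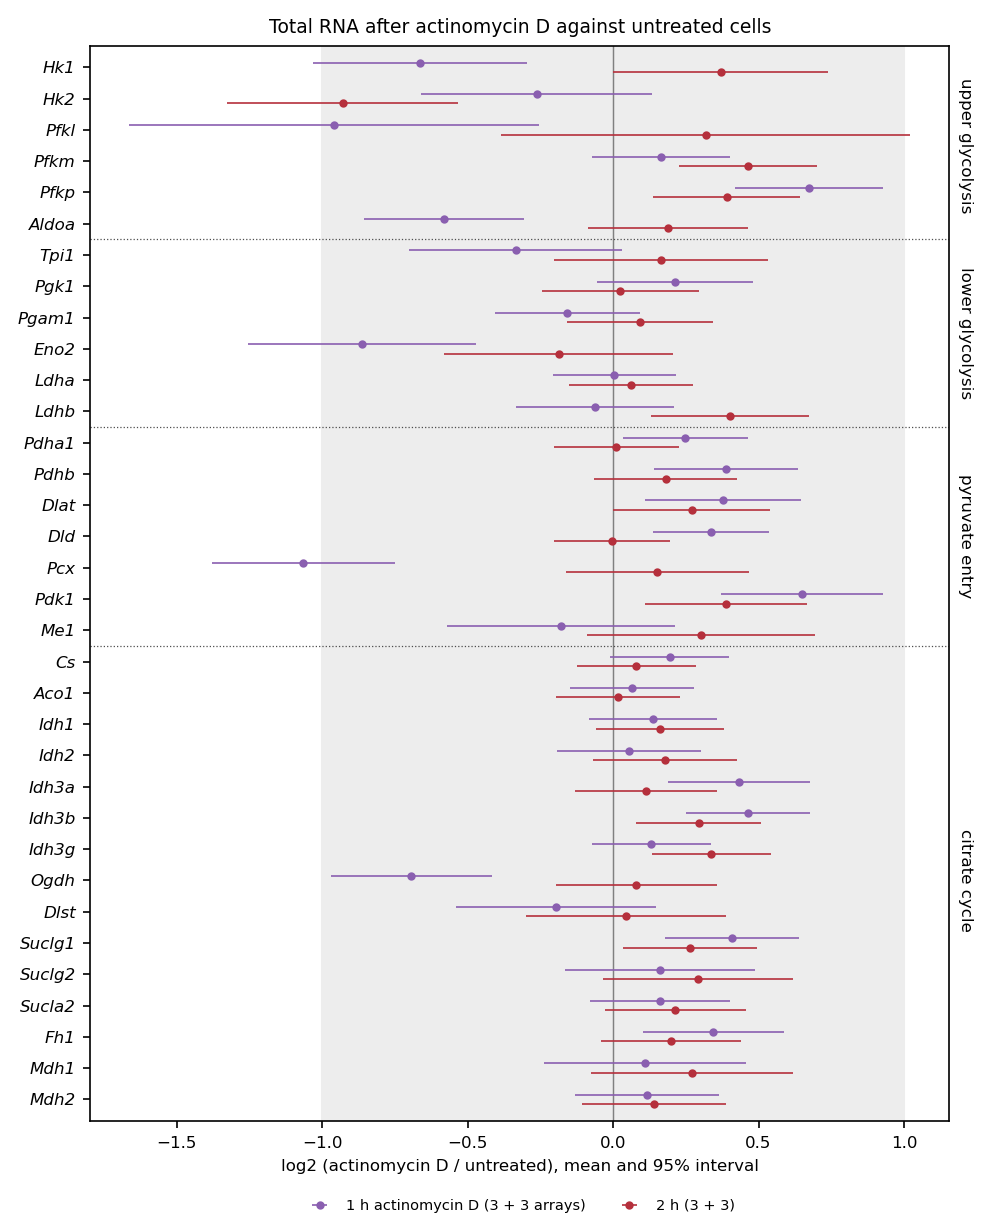
Log2 difference in total RNA after 1 h and 2 h of actinomycin D against untreated cells for each tested gene, by role; points are limma estimates, bars their 95% intervals, and the grey band marks changes under 2-fold. At 1 h Pcx (-1.06) lies just outside the band, and at 2 h every gene lies inside it, with Hk2 (-0.93) farthest to the left.

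The 1 h arrays differed from both the untreated and the 2 h arrays in a few genes. At 1 h 1 of 34 members was lower, Pcx, and 0 were higher, against 3.58% and 2.57% of all probe sets. Pcx stood at 131, 135 and 114 in untreated cells, 59.7, 62.1 and 59.6 at 1 h and 174, 125 and 128 at 2 h. It was lower at 1 h (-1.06 ± 0.14, 2.09-fold, adjusted p = 9e-04) and not at 2 h (0.15 ± 0.14, adjusted p = 0.42). Its control probe set for the 3' end gave -0.82 at 1 h, which was not tested. Leaving out actinomycin D array 3 or untreated array 2 made the 1 h count 2.

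Between 1 h and 2 h 3 of 34 members were higher at 2 h and 0 lower, against 2.28% and 7.32% of all probe sets. Besides Pcx (1.22 ± 0.14, 2.32-fold, adjusted p = 2e-04), Pfkl was higher (1.28 ± 0.31, 2.42-fold, adjusted p = 0.011), with 534, 339 and 436 in untreated cells, 141, 264 and 290.0 at 1 h and 741, 375 and 551 at 2 h. Hk1 was the third (1.03 ± 0.16, 2.05-fold, adjusted p = 0.0012), with 197, 202 and 194 in untreated cells, 163, 104 and 114 at 1 h and 288, 247 and 233 at 2 h. Hk1 fell below 2-fold without 2 h array 1 (0.94) or 1 h array 2 (0.90) or 3 (0.97), and Pfkl without 1 h array 1 (0.95). Over all probe sets that comparison gave 789 lower and 525 higher with quantile normalisation, in place of 1103 and 343. The Gapdh 3' probe set less the 5' one had a median of -0.37 at 1 h and -0.18 in untreated cells (log2), and the part of this in the 1 h values was not tested.

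Pre-existing RNA was set against total RNA at 60 min, where 1 of 34 members was lower, Hk2, and 3 were higher, against 6.96% and 1.87% of all probe sets. The higher ones were Eno2 (1.97 ± 0.52, 3.92-fold, adjusted p = 0.043), Pfkp (1.22 ± 0.33, 2.33-fold, adjusted p = 0.045) and Pcx (1.08 ± 0.29, 2.11-fold, adjusted p = 0.049). All 3 were just past the threshold, with 0 of them called after quantile normalisation and 1 after centring the arrays. Without total RNA array 1 there were 5, with 1320 probe sets higher in place of 288, and without any one of the other 5 arrays of total or pre-existing RNA 0, with 54 to 135 probe sets higher. Hk2 stayed the 1 lower member when each array was left out.

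With 15 min of label in place of 30 min, 0 of 33 members were called in newly transcribed RNA in limma (8 at an unadjusted p below 0.05, as were 52.7% of all probe sets), against 7.33% lower and 10.4% higher over all probe sets. Hk2 held 767, 1045 and 729 at 15 min, all below the 9 arrays at 30 min (-0.72 ± 0.13, 1.65-fold, adjusted p = 8.9e-04). Idh2 went the other way, with 178, 149.9 and 185 at 15 min, all above the 9 arrays at 30 min (0.70 ± 0.16, 1.63-fold, adjusted p = 0.003). Both were under the 2-fold limit, and the 15 min values of both genes lay between those of total and newly transcribed RNA at 30 min.

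Total RNA of labelled cells was set against untreated cells, which were those taken before actinomycin D. Fresh medium, 4sU and differences between experiments cannot be told apart in these comparisons. At 30 min 0 of 34 members were called in limma (5 at an unadjusted p below 0.05, as were 14.8% of all probe sets), against 0.181% lower and 0.544% higher, and in the 2F experiment 0 (1 at an unadjusted p below 0.05, as were 14.2%), against 0.498% and 1.36%. In the first 60 min experiment 2 of 34 were lower, against 4.98%, and 0 higher, against 3.49%. They were Eno2 (-1.83 ± 0.37, 3.56-fold, adjusted p = 0.0037), with 128, 112 and 98.2 in untreated cells, and Aldoa (-1.16 ± 0.29, 2.24-fold, adjusted p = 0.014). Aldoa stood at 3841, 3331 and 3562 in untreated cells and at 2801, 819 and 1776 in total RNA at 60 min, lowest in array 2.

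Array 2 of total RNA at 60 min less array 1 was -1.95 (log2) for Idh3g, -1.78 for Idh2 and -1.77 for Aldoa, and 1.33 for Pdk1 and 0.53 for Hk2. Without array 2 Aldoa was no longer called (-0.68), and without untreated array 1 it was not either (-1.11), which left 1 lower member. Without array 1 there were 7. The counts over all probe sets moved too, from 769 lower and 539 higher to 314 and 253 without array 2, 2036 and 954 without array 1, 377 and 328 without untreated array 3, and 342 higher without untreated array 1. Hk2 was 0.95 ± 0.16 above untreated cells (1.93-fold, adjusted p = 9.8e-04), under the limit, and passed it without total RNA array 1 or 3 or untreated array 2. Its change was 0.37 (adjusted p = 0.28) in the 2F experiment and -0.20 ± 0.13 (adjusted p = 0.51) at 30 min.

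A transcript half-life can be read from the share of it that is new after 60 min, but the scale of that share was poorly fixed. The line of pre-existing over total against newly transcribed over total RNA, which sets it, had a slope of -0.0332 and a correlation of -0.088 over 9047 probe sets. On that scale the median half-life was 57.3 h over 29 members and 28.9 h over all probe sets, and Hk2 had the shortest of the members with 6.49 h (4.38 to 9.53 h from the 95% interval of its ratio alone, with the scale held fixed). With newly transcribed and total RNA of the 2F experiment the slope was -0.148, the correlation -0.633, the median 13.2 h over 31 members and 5.76 h over all probe sets. The 2F experiment had no pre-existing RNA, so this line set pre-existing RNA of the first 60 min experiment over total RNA of 2F.

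On the 2F scale Hk2 was at 0.83 h (0.66 to 1.02 h) and Idh2 at 46.7 h (38.4 to 56.8 h), both intervals with the scale held fixed. Tpi1 was at 35.7 h, Pfkl at 34.0 h and Idh3g at 29.6 h. The change of Hk2 after 2 h of actinomycin D (-0.93, log2) was smaller than a half-life of 0.83 h would give. Pdha1 (5.26 h) and Dlst (5.68 h) were at the short end, and Ldha (13.2 h) and Pgk1 (11.3 h) between. Leaving out 1 array at a time moved the first scale's median from 19.3 to 287 h and Hk2 from 1.70 to 31.7 h, so its absolute values are not fixed. The members' median was 1.91 to 2.40 times that of all probe sets in each setting that gave one. Where new fractions are small the scale largely cancels from this ratio, so it adds little to the measured RNA ratios. The half-lives are a description without a test and assume that total RNA was constant. For Hk2 the geometric mean of total RNA was 419 in untreated cells, 811 at 60 min and 543 in 2F. Hk2 may therefore not meet this assumption, which was not tested.

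A further list of 56 genes of these pathways was read in the same way, and 41 had a probe set. At 30 min 17 of 32 tested were lower in newly transcribed RNA and 3 higher, with a median of -1.07, against 25.6% and 23.7% of all probe sets. The difference between this list and the members was not tested. The lower ones included Sdhb (-2.94 ± 0.13), Sdha (-1.94), Sdhc (-2.33) and Sdhd (-1.40), all 4 subunits of succinate dehydrogenase, Mpc1 of the mitochondrial pyruvate carrier (-2.32) and Pgls of the pentose phosphate pathway (-3.32 ± 0.29). Those higher were Slc2a1, the glucose transporter GLUT1 (1.45 ± 0.12), Pdk4, another pyruvate dehydrogenase kinase (2.17 ± 0.16), and Pdp2, a phosphatase of that complex (1.81 ± 0.18).

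The 3 higher genes were called at 60 min and in the 2F experiment too, where Slc2a1 was at 1.45 and 1.50, Pdk4 at 1.98 and 2.20 and Pdp2 at 2.19 and 2.33. At 60 min 15 of 32 were lower and 3 higher, against 21.8% and 17.7% of all probe sets, and in the 2F experiment 16 and 3 were, against 21.8% and 24%. After 2 h of actinomycin D 1 of 31 was lower, Pdp1, another isoform of the phosphatase (-2.70 ± 0.21, adjusted p = 8.8e-06), and 0 were higher, against 9.42% and 0.538% of all probe sets. The lower count was 2 without 2 h array 1 or untreated array 3. Slc2a1 (-0.63 ± 0.16, adjusted p = 0.013) and Pdk4 (-0.91 ± 0.22, adjusted p = 0.01) were under the 2-fold limit then, like Hk2.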

How the data were processed

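RNA was extracted with Trizol and hybridised to Affymetrix arrays. The authors deposited intensities on a linear scale, made with GCRMA (version not stated), per the submitters' processing notes. Of 31451 probe sets, 61 controls were left out of the tests; 25031 of the other 31390 had 1 symbol, 690 several and 5669 none. Entrez identifiers matched 24947 symbols and changed 0. There is no sequencing depth; the number of arrays limits precision.

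The log2 of the deposited intensities was fitted with limma 3.58.1 (lmFit, eBayes) in R 4.3.3 in 14 comparisons, each on the arrays of its experiment with group as factor. Probe sets entered a fit if their log2 averaged at least 5 over its arrays (intensity 32), so that 1 group can lie below it. The procedure was tested on simulated data: of probe sets changed by a log2 of 2, 99.4% were called at 30 min, 98.9% after 2 h of actinomycin D, 68.8% at 60 min and 62.6% for pre-existing RNA. The simulated noise was independent between arrays, so it held no array sets and no arrays that stood apart. These rates do not apply to smaller changes, such as the members' median at 30 min.

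All members are named. Array values (lowest, median and highest for groups of 9) are given for those called after actinomycin D for up to 6 with the largest changes at 30 min in each direction and for some others; the members and the other lists were chosen with earlier results of these data known. Half-lives are the label time times ln 2 over -ln(1 - new fraction).

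No label states that equal replicate numbers share a culture. Same-numbered arrays deviated together (every correlation over 0.1) in untreated cells with actinomycin D, by 0.143 to 0.183 at 1 h and 0.259 to 0.576 at 2 h, and at 60 min for newly transcribed (0.149 to 0.299) and pre-existing RNA (0.219 to 0.391) and for total RNA against untreated cells (0.121 to 0.321). Alternatives were the scaling, the filter, an offset, all arrays in 1 fit, the median over probe sets, the replicate number as a block and leaving out each array. After the data were seen, averages of the 30 min array sets, single sets, leaving out both arrays that stood apart, and a 2F scale for half-lives were added.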

Additional observations from a re-analysis of the deposited data

Results flagged for a closer look

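In 72 groups of 9 arrays (1 per gene and group), 4 had an array far from the rest, measured as its gap to the nearest other array over the whole range; chance gives about 1 in 20. In newly transcribed RNA at 30 min array 1 was low for Pfkp (24.53 against a median of 33.94, ratio 0.725). In the same group array 7 was high for Suclg1 (303.5 against 184.69, ratio 0.597) and for Me1 (79.55 against 47.95, ratio 0.566). In total RNA at 30 min array 4 was high for Aldoc (6.37 against 5.08, ratio 0.659), at an intensity under the filter.

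Newly transcribed over total RNA differed between the first 60 min experiment and 30 min, by an interaction term in limma, for Eno2 (1.93), Dlst (1.12), Idh2 (1.08), Idh1 (-1.09), Mdh1 (-1.52) and Pdk1 (-2.28). None was called without the 2 arrays that stood apart at 60 min. With the 30 min arrays averaged in sets the differences kept their size by construction, and none was called with the fewer values.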

How the results depend on the processing

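Counts of members lower and higher in newly transcribed RNA at 30 min were 26 and 1 when same-numbered arrays were treated as a replicate block, and the block moved no count of members by over 1.5 times (60 min 22 and 2, pre-existing RNA 1 and 4, 60 min against 30 min 3 and 4). Quantile normalisation gave 2 lower at 1 h of actinomycin D and 0 higher in pre-existing RNA; centring gave 1 higher in pre-existing RNA and 1 higher in total RNA at 60 min. Without the filter 1 was higher in pre-existing RNA and 2 in 2F. A mean log2 of 7 or more gave 0 lower at 1 h, 1 higher in newly transcribed RNA at 60 min, 0 higher in pre-existing RNA and 1 lower in total RNA at 60 min. An offset of 16 gave 0 lower at 1 h and 1 higher at 60 min. All 45 arrays in 1 fit gave 7 higher in pre-existing RNA and 2 lower for 2F against 60 min. The median over probe sets gave 1 higher at 1 h, 3 higher at 30 min, 3 lower in pre-existing RNA, 3 higher in 2F, 2 higher at 15 min, 1 higher and 1 lower in total RNA at 60 min and 1 lower for 2F against 30 min; it turned the sign of Sucla2 at 30 min (0.16) and in 2F (0.21) and of Dlst at 60 min against 30 min (-0.47). Arrays 3, 6 and 9 alone gave 2 higher at 30 min. Leaving out newly transcribed array 1 and total RNA array 2 gave 1 higher at 60 min, 1 lower in total RNA and 0 and 0 for 60 min against 30 min, as did (0 and 0) averaging the array sets.

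Leaving out each array gave, lower and higher, 1 to 2 and 0 at 1 h of actinomycin D, 0 to 1 and 0 at 2 h, 0 and 2 to 3 between them, 26 and 1 to 2 at 30 min, 17 to 23 and 1 to 2 at 60 min, 1 and 0 to 5 in pre-existing RNA, 21 to 24 and 1 in 2F, 1 to 7 and 0 to 1 in total RNA at 60 min, 1 to 3 and 1 to 6 for 60 min against 30 min, and 0 in the other comparisons. The median half-life was 4.99 h from pre-existing RNA, 2.34 h with the line's axes exchanged, 18.1 h without both arrays, 13.2 h from 2F and 19.3 to 287 h leaving out each array; without total RNA array 1 the line did not fall and gave none. Of 92 called or named changes of single members 87 kept direction and call under quantile normalisation, 86 without the filter and 83 with the offset. Arrays of the first 60 min experiment, with the widest spread, limit its values most. The causes were not tested.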

Other observations

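Newly transcribed over total RNA of the members ordered alike in experiments that share no arrays. Over 34 members the change at 30 min and in the 2F experiment had a Pearson correlation of 0.934 and a Spearman correlation of 0.883, against 0.919 and 0.934 over 15494 probe sets; without Hk2 the former was 0.891. The correlation of 30 min with the first 60 min experiment was 0.703 over the members and 0.796 over all probe sets. Genes share arrays within an experiment and are not independent, so these are descriptions.

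The change at 30 min and that after 2 h of actinomycin D, also without shared arrays, had a Pearson correlation of -0.834 over 34 members and -0.561 over all probe sets. Without Hk2 it was -0.654.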
